A study of Arabidopsis thaliana with 8 samples.

Results

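A set of 10 genes of the salicylate defence pathway were followed through shoot regeneration in Arabidopsis. They were picked by name, with earlier results of these data known, and found in the files by their locus identifiers: ICS1 (AT1G74710), EDS1 (AT3G48090), PAD4 (AT3G52430), SNC1 (AT4G16890), FMO1 (AT1G19250), NPR1 (AT1G64280), WRKY70 (AT3G56400), PR1 (AT2G14610), PR2 (AT3G57260) and PR5 (AT1G75040). All 10 had unique reads in at least 1 of the 8 libraries, out of 25686 loci with reads. The plants were the hag1 mutant, which the labels name without an allele, and the wild type Columbia-0 (Col). HAG1, also called GCN5, is a histone acetyltransferase. Roots were sampled whole, and root explants were sampled after 4 days on callus-inducing medium (CIM), after 4 days on CIM and 2 more days on shoot-inducing medium (SIM), and after 4 days on CIM and 2 weeks on SIM. Each genotype gave 1 library at each stage, so within a stage there was no replicate, and whether tissue of several plants was pooled is not given in the sources used here.

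Salicylate is a plant hormone of defence against biotrophic pathogens. Most of it is made in the chloroplast through isochorismate, by ICS1. EDS1 and PAD4 relay signals from intracellular immune receptors such as SNC1 towards salicylate, and FMO1 makes the mobile signal N-hydroxypipecolate. NPR1 binds salicylate and acts with TGA factors as a coactivator of the pathogenesis-related (PR) genes, and WRKY70 is a WRKY transcription factor that acts downstream of NPR1. PR1, PR2 and PR5 encode secreted antimicrobial proteins and are the usual markers of the response in leaves.

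In units of 1e+06, the libraries held 6.96 to 7.54 unique reads. In the labelled mutant the targeted gene HAG1 had 21 reads in roots, 8 on CIM, 16 after 2 days and 13 after 2 weeks on SIM, against 171, 204, 340 and 156 reads at the same stages in Col (adjusted p = 0.0262, edgeR quasi-likelihood test with Benjamini-Hochberg adjustment). Of the 4 root hair markers, all had reads in the 2 root libraries, with summed levels of 236 CPM in hag1 and 351 CPM in Col, where CPM is counts per 1e+06 unique reads after TMM scaling. The 5 endodermis and xylem markers summed to 623 CPM in hag1 roots and 1184 CPM in Col roots. Levels below are in CPM, and a library without reads of a gene is bounded by 3 reads, or 0.398 to 0.431 counts per 1e+06 reads depending on the library. Bounds and intervals cover counting error alone. In these bulk samples, fewer cells of a type and less RNA per cell cannot be told apart.

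The upstream genes were higher after 4 days on CIM than in roots. In a fit with stage and genotype as additive terms, by the edgeR quasi-likelihood test and an adjusted p under 0.05 over 16825 genes, 7 of the 9 genes that could be tested rose on CIM (ICS1, WRKY70, FMO1, EDS1, PAD4, SNC1 and NPR1) and 0 fell. Over all tested genes 27.9% changed in this comparison and 12.5% rose. Because the members were chosen with earlier results of these data known, setting their count beside these shares is a description only. The median log2 fold change was 2.82 over the 9 genes and 0.02 over all genes. In this model libraries of the other genotype stand in for replicates, and nothing in the labels says that they came from separate cultures. PR2 and PR5 did not pass, and PR1 had too few reads to be tested. Without the hag1 root library 8 of 9 rose, and without any other 1 library 6 did.

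ICS1, the isochorismate synthase, showed the steepest increase of the 7. In hag1 it had 1.43 CPM in roots, 54.9 CPM on CIM, 17.6 CPM after 2 days and 5.16 CPM after 2 weeks on SIM. In Col it had 1.51, 55.0, 23.5 and 3.27 CPM at the same stages. Both CIM libraries lay far above both root libraries, and the rise was 5.21 on the log2 scale (SE 0.35, adjusted p = 0.00129, edgeR). From reads summed over its models, the log2 ratio of hag1 to Col was -0.08 in roots (10 reads in each library), -0.00 on CIM, -0.42 after 2 days and 0.66 after 2 weeks, and of these only the value at 2 days had a counting interval that left out 0 (-0.75 to -0.09). By the deposited RPKM (reads per kilobase of transcript per 1e+06 unique reads) of its longer model alone, the log2 ratio was 1.38 on CIM, on 21 reads in hag1 against 8 in Col, and -2.24 after 2 days, on 4 reads in hag1 against 20 in Col. ICS1 and EDS1 are the 2 members with 2 listed transcript models, and unique reads covered only 4.28 to 10.3% of ICS1 and 7.85 to 11.4% of EDS1, against a highest value of 81.1% or more for each of the other 8. Levels of these 2 genes are therefore not set against those of other genes, and their ratios between libraries rest on small stretches.

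EDS1 and PAD4, lipase-like proteins that form a complex, had nearly parallel profiles. PAD4 had 94.3 CPM in roots, 562 CPM on CIM, 244 CPM after 2 days and 91.5 CPM after 2 weeks on SIM in hag1. Its levels in Col were 91.9, 767, 355 and 71.3 CPM. Both genotypes thus peaked on CIM and were near their root level after 2 weeks, with hag1 below Col on CIM and after 2 days. The increase on CIM was 2.82 on the log2 scale (SE 0.27, adjusted p = 0.00293) for PAD4 and 3.01 (SE 0.31, adjusted p = 0.00335) for EDS1 (edgeR). EDS1 had 4.29, 38.5, 21.7 and 6.64 CPM in hag1 and 6.35, 47.1, 22.5 and 4.45 CPM in Col at the 4 stages in turn. Across the 8 libraries the log2 levels of EDS1 and PAD4 had a Pearson r of 0.984, a description that rests on the stage differences that the libraries share.

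A neighbouring locus, AT3G48080, is a near copy of EDS1 with 1 listed model, and unique reads covered 85.3 to 98.8% of it. It had 37.3, 103, 88.0 and 35.1 CPM in hag1 at the 4 stages in turn, against 26.1, 82.5, 41.2 and 16.9 CPM in Col. The copy was higher in hag1 at all 4 stages, by 1.095 (0.90 to 1.29) on the log2 scale after 2 days and 1.05 (0.73 to 1.39) after 2 weeks on SIM. Its genotype effect over all stages did not pass (0.74, SE 0.18, adjusted p = 0.115, edgeR). EDS1 itself had log2 ratios of hag1 to Col of -0.56, -0.29, -0.05 and 0.58. How reads that fit both loci were treated is not given in the sources used here.

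SNC1, an immune receptor of the TIR-NB-LRR class in the RPP4 and RPP5 gene cluster, had its lowest levels in roots. In hag1 it had 27.5 CPM in roots, 115 CPM on CIM, 96.8 CPM after 2 days and 143 CPM after 2 weeks on SIM. In Col it had 33.4, 157, 81.9 and 107 CPM. All 6 explant libraries lay above both root libraries, and the rise was 2.16 on CIM (SE 0.26, adjusted p = 0.00472) and still 2.04 after 2 weeks (SE 0.26, adjusted p = 0.00799) against roots on the log2 scale (edgeR). Its cluster neighbour RPP4 rose too, by 3.02 on CIM (SE 0.40) and by 3.87 after 2 weeks (SE 0.41), and members of this cluster share sequence, so reads of close copies could be split or lost. The log2 ratio of hag1 to Col for SNC1 was -0.28 in roots, -0.45 on CIM, 0.24 after 2 days and 0.41 after 2 weeks, all under 2-fold.

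FMO1 was the upstream gene with the widest gap between genotypes. In hag1 it had 10.02 CPM in roots, 76.6 CPM on CIM, 45.0 CPM after 2 days and 6.49 CPM after 2 weeks on SIM. In Col it had 11.6, 207, 128 and 8.46 CPM. The genotypes lay close together in roots and after 2 weeks, and hag1 lay well below Col in between. The log2 ratio of hag1 to Col was -1.43 (-1.58 to -1.29) on CIM and -1.50 (-1.69 to -1.32) after 2 days, with 555 and 328 reads in hag1 against 1619 and 1062 in Col. FMO1 rose in the stage test all the same, by 3.54 on the log2 scale (SE 0.40, adjusted p = 0.00405, edgeR). Within a stage there is no test, and a gene was counted as differing at 2-fold or more with at least 50 reads in either library. By that rule 2 of the 8 members with enough reads differed on CIM, PR2 and FMO1, both lower in hag1, while 12.6% of all genes differed and 7.55% were lower. After 2 days the same 2 of 8 were lower, where 15.0% of all genes differed and 9.51% were lower.

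NPR1 changed least. It had 81.7, 131, 91.9 and 71.4 CPM at the 4 stages in hag1 and 96.2, 137, 91.3 and 65.6 CPM in Col. The CIM libraries were the highest in both genotypes, and the rise over roots was 0.59 on the log2 scale (SE 0.15, adjusted p = 0.0378, edgeR). This call was lost without any 1 of the 8 libraries, where the adjusted p was 0.0544 to 0.181, and without the filter on low counts. The log2 ratio of hag1 to Col stayed between -0.24 and 0.12.

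Leaving out ICS1 and EDS1, whose levels are not set against other genes, WRKY70 was the most abundant member on CIM per length. It had 637 RPKM in hag1 and 676 RPKM in Col. PAD4 followed with 295 RPKM in hag1 and 438 RPKM in Col, while PR2 had 9.86 RPKM in hag1 and 41.8 RPKM in Col. WRKY70 had 58.7, 698, 429 and 193 CPM at the 4 stages in hag1, against 41.1, 680, 472 and 104 CPM in Col. Both genotypes were high on CIM and after 2 days, and the rise on CIM was 3.81 on the log2 scale (SE 0.31, adjusted p = 0.0019, edgeR). In roots hag1 was higher by 0.51 (0.29 to 0.74) and after 2 weeks by 0.89 (0.75 to 1.02), the widest excess in hag1 of any upstream member, though under 2-fold.

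**Figure D1:**
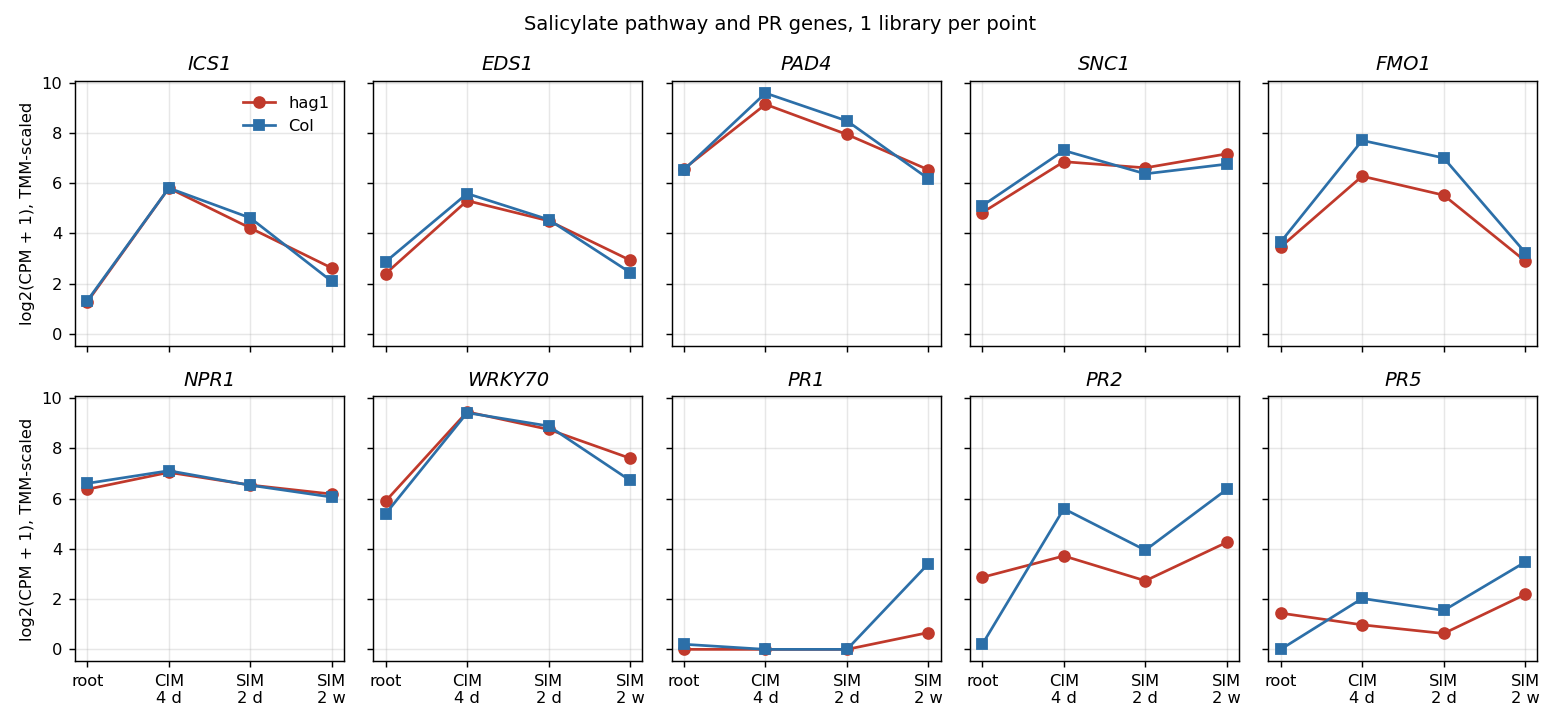
Levels of the 10 genes by stage, as log2(CPM + 1) after TMM scaling, with 1 panel per gene, circles for hag1 and squares for Col, and 1 library per point. ICS1, EDS1, PAD4, FMO1 and WRKY70 peak on CIM in both genotypes, while PR1 is seen after 2 weeks on SIM, at 0.590 CPM in hag1 and 9.65 CPM in Col.

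The PR genes had other profiles. PR1 had 0 reads in hag1 roots, on CIM and after 2 days, and 4 reads after 2 weeks on SIM. In Col it had 1, 0, 0 and 65 reads at the same stages. The 2 CIM libraries, where ICS1, PAD4 and WRKY70 were at their highest, thus held no PR1 read, which bounds PR1 there at 0.420 counts per 1e+06 reads in hag1 and 0.424 in Col. After 2 weeks the log2 ratio of hag1 to Col was -4.03 (-5.95 to -2.61). In Col PR1 was at least 26.8-fold higher after 2 weeks than after 2 days, by a floor of 3 reads per library. With no filter on low counts PR1 passed the test of 2 weeks against 2 days (adjusted p = 0.0198, edgeR).

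PR2, a beta-1,3-glucanase, was detected at every stage. In hag1 it had 44 reads in roots, 88 on CIM, 41 after 2 days and 123 after 2 weeks on SIM, or 6.30, 12.1, 5.63 and 18.2 CPM. In Col it had 1, 370, 120 and 549 reads, or 0.151, 47.3, 14.4 and 81.5 CPM. The order of the genotypes turned over: hag1 was higher in roots and lower at the 3 explant stages. The log2 ratio of hag1 to Col was 5.38 in roots with a wide interval (2.83 to 10.7) that rests on 1 read in Col. It was -1.96 (-2.31 to -1.62) on CIM, -1.36 (-1.91 to -0.83) after 2 days and -2.17 (-2.46 to -1.88) after 2 weeks.

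PR5, a thaumatin-like protein, showed the same order on fewer reads. It had 12, 7, 4 and 24 reads at the 4 stages in hag1, against 0, 24, 16 and 68 reads in Col. In roots hag1 was at least 3.79-fold higher, by a floor of 3 reads in the Col library. The log2 ratio of hag1 to Col was -1.67 (-3.13 to -0.41) on CIM, -1.81 (-3.85 to -0.17) after 2 days and -1.51 (-2.25 to -0.82) after 2 weeks. After 2 weeks PR1, PR2 and PR5 were the 3 of 8 members with enough reads that were lower in hag1 by 2-fold or more, where 14.2% of all genes differed and 11.6% were lower. In roots 0 of 5 met the rule, against 12.2% of all genes.

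Whether the hag1 effect in explants differs from that in roots was tested by an added term. For PR2 this difference was -7.08 on the log2 scale (SE 0.68, unadjusted p = 0.00031, adjusted p = 0.579, edgeR) and for FMO1 it did not pass either. It reached 0 of 9 members and 0 of all genes, 0% of those tested, although 1447 genes had an unadjusted p under 0.05 and DESeq2 called 41. DESeq2 called PR2 (log2 difference -7.22, adjusted p = 0.00499), and it gave no adjusted p for PR5. The PR5 term had an unadjusted p of 0.00085 and an adjusted p of 0.579 (edgeR), with a fitted value that has no bound because Col roots had no read. Both rest on the 1 and 0 reads in the Col root library, and without either root library this term cannot be fitted.

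The stage values of PR2 and PR5 also turned on a root library. Against roots, the CIM change of PR2 was 2.64 (SE 1.34, adjusted p = 0.188, edgeR) and that of PR5 was 0.94 (SE 1.25, adjusted p = 0.598). Without the hag1 root library they were 8.08 (adjusted p = 0.0118) and 7.47 (adjusted p = 0.0197), both then set against the 1 and 0 reads of Col roots. Without the Col root library PR2 was 1.00 and PR5 was -0.80, and neither passed.

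**Figure D2:**
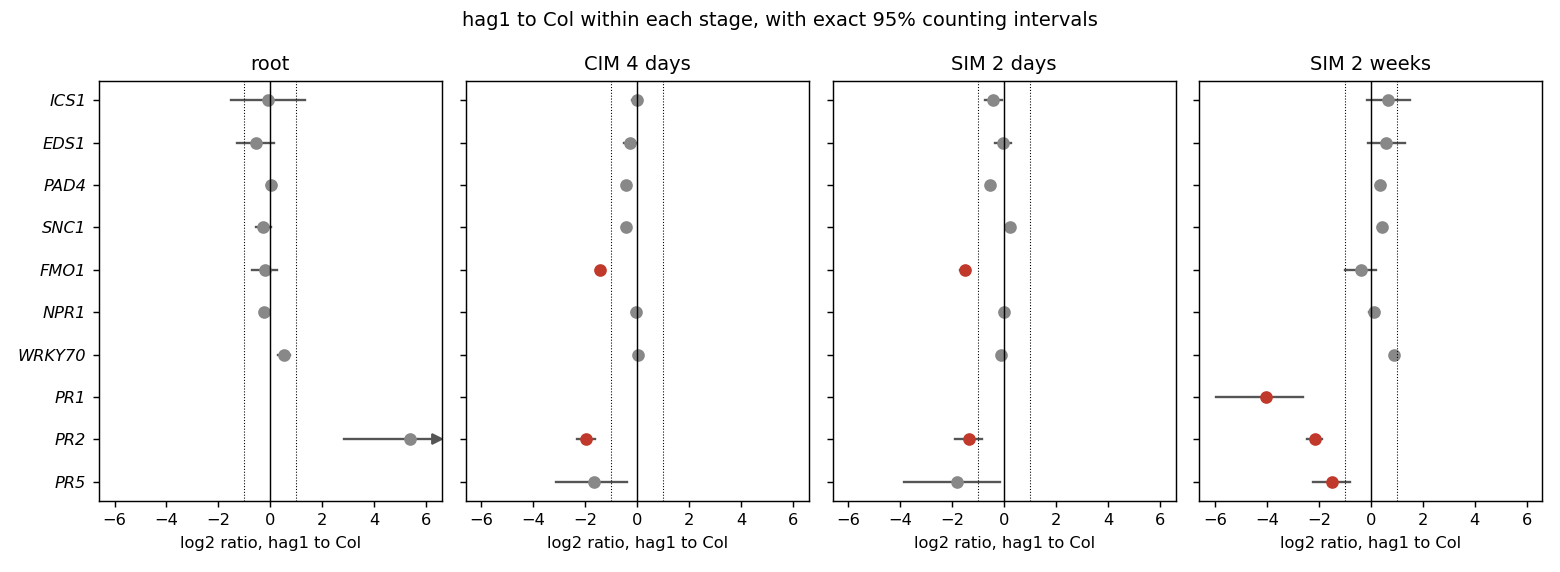
Log2 ratio of hag1 to Col for each gene, 1 panel per stage, with exact 95% counting intervals as lines, and red points where the ratio was at least 2-fold with at least 50 reads in either library. Dotted lines mark 2-fold, an arrowhead marks an interval that runs off the axis, and no point is drawn where a library had no read; PR2 lies right of 0 in roots and left of 0 at the other 3 stages.

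The reference genome shows what letters lie before 9 of these genes. A pair of short motifs was searched on both strands: TTGAC, the core of the W-box bound by WRKY factors, and TGACG, the core of the site of TGA factors, which overlap where the letters read TTGACG. In the 1000 bases before the deposited start, TTGAC was found in 8 of the 9 genes (not before NPR1), against 88.4% of 25536 loci, and TGACG in 4 of the 9, against 55.4%, so neither set the 9 genes apart. The RefSeq annotation starts these 9 genes 0 (ICS1) to 517 (SNC1) bases further upstream, 108 for PR2 and 142 for WRKY70. Part of a 1000-base window can therefore lie inside the RefSeq gene. PR2 had 4 TTGAC and 2 TGACG, and WRKY70 had 1 and 2, where the mean over all loci was 2.30 and 0.889. The 300-base stretches below are shown because they hold all TGACG matches of these 2 genes and the TTGAC matches near them. Capitals mark both motifs and their reverse complements. The letters are from the RefSeq TAIR10.1 genome, both on the reverse strand and written 5′ to 3′ towards the gene: PR2 from 650 to 351 bases before the start (chr3:21190210-21190509) and WRKY70 from 450 to 151 (chr3:20910632-20910931).
PR2: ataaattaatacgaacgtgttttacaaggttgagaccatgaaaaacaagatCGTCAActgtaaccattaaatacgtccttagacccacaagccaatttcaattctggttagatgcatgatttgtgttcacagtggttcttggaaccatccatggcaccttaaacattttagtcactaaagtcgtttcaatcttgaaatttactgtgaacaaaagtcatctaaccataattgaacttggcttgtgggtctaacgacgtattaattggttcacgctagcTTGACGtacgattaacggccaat
WRKY70: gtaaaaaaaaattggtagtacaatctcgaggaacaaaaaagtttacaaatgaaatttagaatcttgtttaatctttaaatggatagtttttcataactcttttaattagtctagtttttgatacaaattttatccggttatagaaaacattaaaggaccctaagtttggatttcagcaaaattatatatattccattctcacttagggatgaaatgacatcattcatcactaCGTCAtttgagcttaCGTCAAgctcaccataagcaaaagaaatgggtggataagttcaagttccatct
A match is a description of the letters and not of binding.

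Between CIM and 2 days on SIM, 0 of 9 members passed (0.0654% of all genes did), and all 9 had lower values after 2 days than on CIM, with a median of -0.73. ICS1 had -1.42 (SE 0.27, adjusted p = 0.16) and PAD4 -1.15 (SE 0.26, adjusted p = 0.206) in edgeR, while DESeq2 called both (adjusted p = 0.00892 and 0.0134). The count of 0 goes with 1796 genes at an unadjusted p under 0.05.

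After 2 weeks on SIM 5 of the 7 upstream genes were lower than after 2 days. They were the only members of the 9 tested to pass, where 11.8% of all genes changed and 4.78% fell. On the log2 scale the change was -3.38 for FMO1 (SE 0.41, adjusted p = 0.011), -2.28 for ICS1 (SE 0.30, adjusted p = 0.0136) and -1.98 for EDS1 (SE 0.31, adjusted p = 0.0193, edgeR). It was -1.86 for PAD4 (SE 0.27, adjusted p = 0.0163) and -1.65 for WRKY70 (SE 0.29, adjusted p = 0.0247, edgeR). Their 2-week libraries lay below their 2-day libraries in both genotypes. SNC1 had a positive value, 0.49 (SE 0.25, adjusted p = 0.242), and NPR1 a negative one, -0.42 (SE 0.15, adjusted p = 0.13), and neither passed (edgeR). Without the Col library at 2 days or that at 2 weeks all 5 calls were lost (adjusted p 0.0655 to 0.142), and without the hag1 library at 2 days EDS1 was lost (adjusted p = 0.072). PR2 and PR5 had positive values, 2.19 (SE 1.18, adjusted p = 0.268) and 2.42 (SE 1.06, adjusted p = 0.186), and did not pass. They were called without the Col root library (adjusted p = 0.0244 and 0.0263) and without the hag1 root library (adjusted p = 0.0259 and 0.0269). Per genotype, PR2 was 3.22-fold higher after 2 weeks than after 2 days in hag1 and 5.65-fold higher in Col.

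Set against roots, 3 of 9 members were still raised after 2 weeks (24.9% of all genes changed and 11.3% rose): SNC1, WRKY70 by 1.56 (SE 0.29, adjusted p = 0.0173) and ICS1 by 1.51 (SE 0.36, adjusted p = 0.0323, edgeR). SNC1 passed without any 1 library. WRKY70 was lost without either root library or the hag1 library at 2 weeks (adjusted p 0.0654 to 0.0878), and ICS1 without any 1 of 5 libraries (adjusted p 0.0586 to 0.141), namely each root library, each CIM library and hag1 at 2 weeks in turn. With limma on log2(RPKM + 1) ICS1 did not pass either (adjusted p = 0.0908). PR2 and PR5 had larger values that did not pass, 3.35 (SE 1.36, adjusted p = 0.122) and 2.67 (SE 1.16, adjusted p = 0.142, edgeR). DESeq2 called PR2 (adjusted p = 0.0282), and without the hag1 root library both were called (adjusted p = 0.0261 for each). With no filter on low counts PR1 passed (5.76, SE 0.90, adjusted p = 0.0152, edgeR). EDS1 (0.08) and PAD4 (-0.19) did not pass.

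The hag1 effect shared by all stages reached 0 of 9 members, where 0.422% of all genes passed. Of the 9, FMO1 came closest, at -0.95 on the log2 scale (SE 0.27, adjusted p = 0.149, edgeR), with hag1 lower at 4 of 4 stages. Its counting intervals included 0 in roots (-0.70 to 0.27) and after 2 weeks (-0.98 to 0.21). DESeq2 called FMO1 (adjusted p = 0.0405). PR2 was at -1.06 (SE 0.92, adjusted p = 0.56), PR5 at -0.87 (SE 0.82, adjusted p = 0.588) and WRKY70 at 0.32 (SE 0.20, adjusted p = 0.414). The other 5 lay between -0.15 and 0.01. Without both root libraries PR2 was at -1.87 (adjusted p = 0.061) and PR5 at -1.63 (adjusted p = 0.082, edgeR). PR1 was at -3.81 (SE 0.76, adjusted p = 0.107, edgeR) with no filter on low counts, and did not pass either. The hag1 effect after 2 weeks, tested against that at the other 3 stages, passed for 0 of 9 members and 0% of all genes (850 at an unadjusted p under 0.05; DESeq2 called 63).

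After 2 weeks markers of other tissues lay lower in hag1, as the PR genes did. The 5 green tissue markers, all of which had reads in every library, summed to 260, 41.0, 48.3 and 629 CPM at the 4 stages in hag1, against 324, 56.7, 44.8 and 1314 CPM in Col. Their sum was thus highest after 2 weeks and lower there in hag1, as were the levels of PR1, PR2 and PR5. In roots the sum was lower in hag1 as well, but LHCB1.3 and LHCB6 were not. LHCB1.3 had 902 reads in hag1 and 585 in Col there, and LHCB6 had 112 and 96. The counting interval of the LHCB6 log2 ratio included 0 (-0.26 to 0.55). LHCA4 (291 in hag1 and 688 in Col), PSBR (460 and 716) and RBCS1A (49 and 58) had fewer reads in hag1 roots. PR2 and PR5 had more reads in hag1 roots. The sum was lower on CIM than in roots, while PR2 and PR5 in Col were higher on CIM. Of the 5 green tissue markers, after 2 weeks, 2 (RBCS1A and LHCB1.3) were lower in hag1 by 2-fold or more, where 11.6% of all genes were. The 5 endodermis and xylem markers summed to 14.8 CPM in hag1 and 94.0 CPM in Col after 2 weeks, and to 33.8 CPM in hag1 and 81.6 CPM in Col on CIM. The part of these tissues in the PR values was not tested. SAG12 and SAG13, markers of senescing tissue, had at most 3 reads in any library.

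The genes around the 10 members were grouped by role, in lists chosen with earlier results of these data known. For the counts below, 27.9% of all tested genes changed on CIM against roots and 12.5% rose. After 2 weeks against 2 days 11.8% changed and 4.78% fell. Among 12 genes of salicylate synthesis and its regulators, 4 of the 10 tested rose on CIM and 1 fell, with a median of 0.15. PBS3, which conjugates isochorismate to glutamate, rose by 7.44 (SE 0.48, adjusted p = 0.00127, edgeR), the transcription factor SARD1 by 6.11 (SE 0.55) and the chloroplast transporter EDS5 by 3.39 (SE 0.33). PBS3 had 29 reads in roots, 4670 on CIM, 1359 after 2 days and 254 after 2 weeks in hag1, against 31, 7149, 3341 and 183 in Col. All 3 fell again after 2 weeks against 2 days, with log2 changes of -3.09 (SE 0.39) for PBS3, -2.14 (SE 0.46) for SARD1 and -2.35 (SE 0.32) for EDS5. PAL2, a phenylalanine ammonia-lyase of the other route to salicylate, fell on CIM by 2.00 (SE 0.38) and rose by 1.63 after 2 weeks (SE 0.38). ICS2, the second isochorismate synthase, had 26 reads in hag1 roots and 10 in Col roots and at most 4 elsewhere.

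Of 14 receptors and partners, 6 of the 11 tested rose on CIM and 1 fell (median 1.296). NIMIN1 (5.62, SE 0.41) and NIMIN2 (4.49, SE 0.56), small proteins that bind NPR1, led, followed by the NPR1 paralog NPR2 (2.67, SE 0.22), and the bZIP factor TGA3 fell (-0.73, SE 0.18). After 2 weeks 4 of 11 were lower than after 2 days, led by NIMIN1 (-2.92, SE 0.35), the salicylate receptors NPR4 (-1.72, SE 0.21) and NPR3 (-1.67, SE 0.39), and TGA3 was higher (1.12, SE 0.18). Of 13 EDS1 partners, helper receptors and SNC1 regulators, 5 rose on CIM and 1 fell (median 0.65): RPP4, SAG101 (2.22, SE 0.31), a second partner of EDS1, and the helper receptor ADR1-L1 (1.07, SE 0.25) led, and NRG1.1 fell (-1.10, SE 0.27). After 2 weeks against 2 days RPP4 alone of the 13 passed, upwards (1.65, SE 0.36).

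Some genes that respond to salicylate were also high on CIM. Of 14, 6 of the 11 tested rose on CIM and 0 fell (median 2.00). PNP-A, a secreted natriuretic-like peptide, rose by 9.74 (SE 0.45, adjusted p = 0.00086, edgeR), with 6, 3191, 2339 and 139 reads at the 4 stages in hag1 and 1, 3395, 1812 and 94 reads in Col. WRKY62 rose by 5.65 (SE 0.29) and WRKY54, a close relative of WRKY70, by 3.49 (SE 0.29). LURP1 had 2, 0, 0 and 14 reads in hag1 and 2, 0, 0 and 51 in Col, and PCC1 had 3 to 7 reads in any library. After 2 weeks 5 of 11 were lower than after 2 days, led by PNP-A (-3.96, SE 0.31), GRX480 (-3.55, SE 0.84) and WRKY46 (-2.21, SE 0.45). By the 2-fold rule 3 of 11 were higher in hag1 on CIM (WRKY33, WRKY40 and WRKY54) and 0 lower, while 3 of 8 were lower in roots (WRKY40, WRKY46 and GRX480) and 3 of 11 after 2 days (WRKY40, WRKY53 and GRX480), with 0 higher at both. After 2 weeks 2 of 10 were higher (WRKY38 and WRKY54) and LURP1 lower. Over all genes 12.2% differed by this rule in roots, 12.6% on CIM, 15% after 2 days and 14.2% after 2 weeks. Lower in hag1 were 7.55% on CIM, 9.51% after 2 days and 11.6% after 2 weeks. The share lower in roots is a part of the 12.2%. The shares higher on CIM and after 2 weeks are parts of the 12.6% and the 14.2%. WRKY54 had log2 ratios of hag1 to Col of 0.80, 1.32, 0.64 and 1.56 at the 4 stages in turn but did not pass for genotype (1.08, SE 0.19, adjusted p = 0.0798, edgeR).

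A further pair of groups moved in both directions on CIM. Of 7 genes that modify salicylate, 2 of the 5 tested rose, the hydroxylase S3H (2.82, SE 0.34) and the glucosyltransferase UGT76B1 (1.16, SE 0.30), and 2 fell, the methyl salicylate esterase MES9 (-4.71, SE 0.72) and the glucosyltransferase UGT74F2 (-3.04, SE 0.74); the median was -0.54. DMR6, a salicylate hydroxylase, was lower in hag1 by 2-fold or more at all 3 explant stages, with 486, 357 and 81 reads in hag1 against 1146, 988 and 350 in Col, but did not pass for genotype (-1.27, SE 0.24, adjusted p = 0.0868, edgeR). Of 4 genes of systemic acquired resistance, SARD4, which acts before FMO1 in the pipecolate route, rose on CIM by 2.93 (SE 0.30), and AZI1, a lipid transfer protein, fell by 6.20 (SE 0.62); the median was 0.03. ALD1, the aminotransferase that starts that route, had 87 reads in hag1 and 222 in Col on CIM, a log2 ratio of -1.24 (-1.62 to -0.88). In roots it had 32 reads in hag1 and 88 in Col, a log2 ratio of -1.54 (-2.17 to -0.94). After 2 days it had 29 and 25 reads, and the counting interval included 0 (-0.42 to 1.24). AZI1 and DIR1, another lipid transfer protein, were lower in hag1 after 2 weeks, as were PR1, PR2 and PR5. They had 803 and 91 reads in hag1 and 2183 and 199 in Col, where 11.6% of all genes were lower by 2-fold or more. In roots AZI1 was lower in hag1 (107 reads against 347 in Col), unlike PR2 and PR5, and DIR1 was higher (41 against 6).

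Of 4 PR genes linked to jasmonate and ethylene, 2 could be tested. PR3, a chitinase, rose on CIM by 2.14 (SE 0.23), and PR4, a chitin-binding protein, rose after 2 weeks against 2 days by 2.31 (SE 0.26, adjusted p = 0.00941, edgeR). PR3 had 618, 2366, 1292 and 2332 reads in hag1 and 642, 4025, 2563 and 2639 reads in Col, so unlike PR1 it was abundant at every stage. In none of these 7 groups did a gene pass for genotype.

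**Figure D3:**
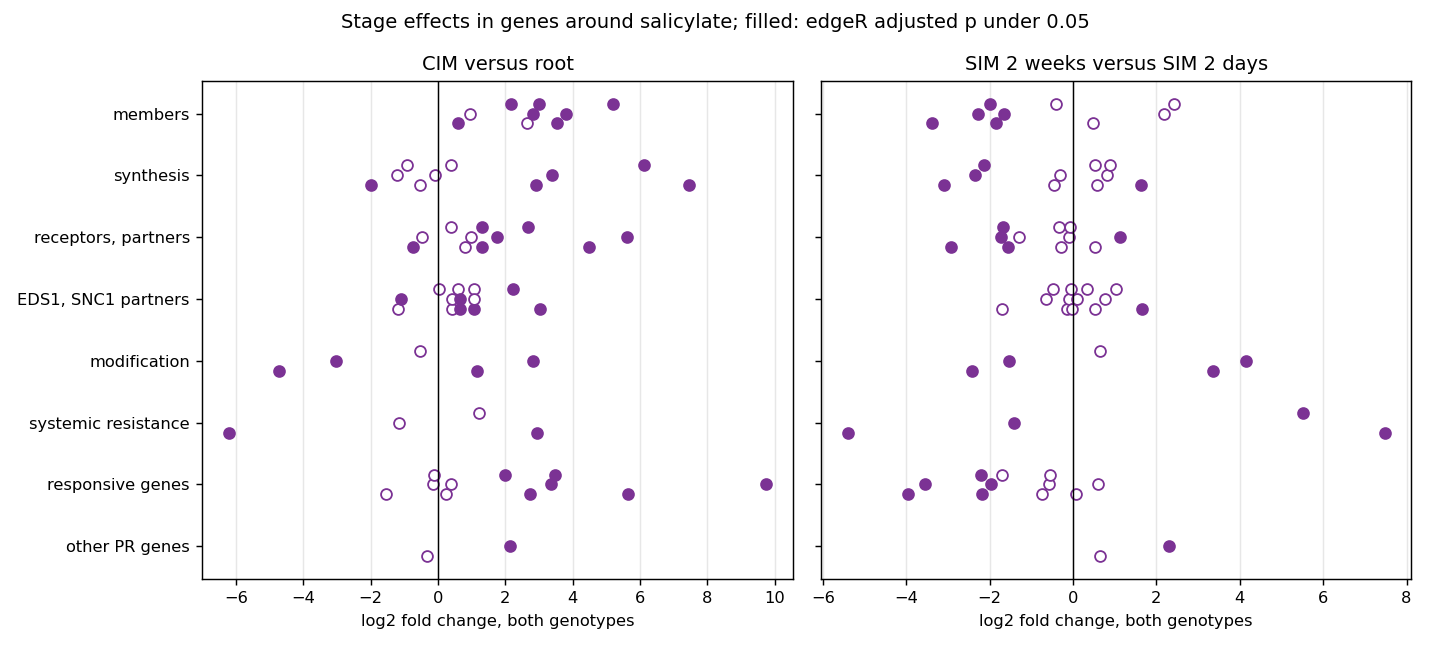
Log2 fold change of each tested gene by group, with CIM versus roots on the left and 2 weeks versus 2 days on SIM on the right, both genotypes in 1 fit; filled circles passed at an edgeR adjusted p under 0.05. On the left 7 filled circles of the members lie right of 0, and on the right 5 lie left of it, while PR2 (2.19) and PR5 (2.42) are open circles right of 0.

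The profiles of the 10 genes over the 8 libraries were alike to different degrees. ICS1 and WRKY70 had a Pearson r of 0.973, ICS1 and EDS1 0.973, and PAD4 and FMO1 0.964, on log2(CPM + 1). PR2 and PR5 had an r of 0.91 and PR1 and PR2 0.557, while PR1 was negative with EDS1 (-0.51), PAD4 (-0.53) and NPR1 (-0.63). SNC1 lay between, with an r of 0.768 with WRKY70, 0.719 with PR2, 0.487 with PAD4 and 0.199 with NPR1. These are descriptions over 8 libraries of 4 stages, which share stage and depth. PR1 had 65 of its 70 reads in the Col library after 2 weeks, so its r values rest mostly on that 1 library. The genes most like PR1 among 16825 were AT5G46600 (r = 0.991), AT1G47395 (0.965) and CXIP2 (0.961). Those most like PR2 were PHYE (0.966), AT5G05230 (0.95) and AT1G56000 (0.948), and those most like PR5 were PFA-DSP4 (0.969), FRO8 (0.967) and CYP77A5P (0.96). The gene most like EDS1 was EDS5 (0.99), and those most like WRKY70 were PUB54 (0.997), AT3G21810 and WRKY50 (both 0.994).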

How the data were processed

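Total RNA of hag1 and Col was sequenced at 4 stages, 1 library each, prepared by BGI with Illumina protocols per the labels. The deposited files give, per the file headers, unique read counts per transcript model, RPKM computed by the authors from those counts, and coverage as the percent of each model covered. The submitters' processing notes name TAIR 10; which aligner, counter and strand setting were used is not given in the sources used here. Counts were summed per locus, scaled with TMM, filtered with filterByExpr (16825 genes left) and fitted in edgeR 4.0.16 (R 4.3.3) with additive stage and genotype terms (3 residual degrees of freedom); an added term tested differences of the hag1 effect. SE is the log2 value divided by the square root of F. Benjamini-Hochberg adjustment was over all genes, at 0.05. Ratios within a stage carry exact 95% Clopper-Pearson intervals. Tests were checked on simulated data with independent counts and the same dispersion for every gene. That check does not cover the use of the other genotype's libraries as replicates. DESeq2 1.42.0 and limma 3.58.1 (on log2(RPKM + 1) and log2(RPKM + 0.1)) were alternatives, as were other scalings, filters and left-out libraries.

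The members and the gene lists were chosen with earlier results of these data known. All members are named; from each other list the up to 3 largest called changes per direction are named, and other genes named from the lists were chosen after their values were seen. Likeness used log2(CPM + 1). The RefSeq genome was read by the files' coordinates: RefSeq coding regions of 96.8% of 23586 loci lie inside the deposited models. At RefSeq coordinates 99.9% of the coding regions start with ATG, which does not check the files' coordinates. The letters before 1 member are not reported here.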

Additional observations from a re-analysis of the deposited data

Results flagged for a closer look

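For 5 members the log2 ratio of hag1 to Col differed in sign between stages with counting intervals on either side of 0. With 1 library per genotype and stage the difference was not tested in these pairs of stages. For PR2 the ratio was 7.55 higher in roots than after 2 weeks on SIM, on 44 and 123 reads in hag1 against 1 and 549 in Col. For PR5 it was at least 3.73 higher in roots than after 2 days on SIM, by a floor of 3 reads in the Col root library, on 12 and 4 reads in hag1 against 0 and 16 in Col. For WRKY70 it was 1.02 higher after 2 weeks than after 2 days on SIM, for PAD4 0.90 higher between the same stages, and for SNC1 0.86 higher after 2 weeks than on CIM.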

How the results depend on the processing

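The stage term sets each hag1 library against the Col library of its stage, and without it 4 genes passed for genotype in place of 71. No paired analysis was possible because the labels give no replicate numbers, beyond that pairing by stage. The rise of ICS1, WRKY70, FMO1, EDS1, PAD4 and SNC1 on CIM kept its direction and passed under all 15 alternatives run for each. Scaling by total counts moved the median of all genes from 0.02 to 0.21 on CIM against roots and from -0.01 to -0.21 after 2 weeks against 2 days, and left the members' calls in these comparisons as they were.

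Counts over all genes depended on the settings. For the genotype effect 71 genes passed, with 15 under total counts, 222 without a filter, 1224 with DESeq2, 14 and 19 with limma at pseudocounts of 1 and 0.1, 0 without both libraries of any 1 stage, and 0 to 0 without 1 library. For 2 days on SIM against CIM 11 passed, with 2 under total counts, 72 without a filter, 524 with DESeq2, 42 with limma at 0.1, and 0 to 16 without 1 library. For 2 weeks against 2 days 1993 passed, with 3043 by DESeq2 and 0 to 1949 without 1 library. CIM against roots gave 4687, and 1612 to 4311 without 1 library; 2 weeks against roots gave 4184, and 1255 to 3621. The tests of a difference of hag1 effects gave 0 genes and, with DESeq2, 41 for explants against roots and 63 for 2 weeks against the other stages. Within CIM, 1578 genes differed 2-fold at 50 reads and 2384 at 20 reads; after 2 weeks 1732 did, with 2747 at 20 and 1135 at 100.

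Small genotype effects that did not pass changed sign. EDS1 (-0.09) was 0.0096 without the root libraries and -0.28 to 0.032 without 1 library. SNC1 (-0.02) was 0.0098 without a stage term, 0.048 without roots, 0.12 without CIM and -0.16 to 0.14 without 1 library. NPR1 (-0.04) was 0.00069 without roots and -0.10 to 0.022 without 1 library. ICS1 (0.01) was -0.012 with DESeq2 size factors, -0.060 with total counts, -0.0056 without a filter, -0.016 with DESeq2, -0.048 and -0.0064 with limma, -0.076 without a stage term, -0.0085 without roots, -0.19 without 2 weeks and -0.19 to 0.19 without 1 library. Without 1 library PR5 was -0.80 to 7.47 for CIM against roots and -1.42 to 0.0086 for 2 days against CIM; for 2 weeks against roots EDS1 was -0.35 to 0.48 and PAD4 -0.53 to 0.13. The causes were not tested. Depth limits PR1 and PR5 most, with 70 and 155 reads over the 8 libraries.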
